A study of Acipenser sinensis with 45 samples.

Results

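The hypothalamus and the testis of 6 male Chinese sturgeon (Acipenser sinensis) were compared by RNA sequencing. The 12 libraries of the comparison, out of 45 in the series, were taken by the tissue letter of their column codes: h for the hypothalamus (group MH) and s for the testis (group MG). Each number stands for the same fish in both groups, so the tissues were paired by fish, and the 6 fish are 6 of the 15 sampled. The males were in gonadal stage II, were over 4 years old and came from a captive breeding population. They received no treatment, and no allele or strain is given. RNA was extracted with TRIzol from frozen tissue and made into stranded mRNA libraries. Also used here were the pituitary of the same males (MP, 6 libraries) and the hypothalamus and gonad of other fish. These were 6 fish in stage I, 1 year old and of unknown sex (UH and UG), and 3 stage II females, also over 4 years old (FH and FG). Stage, age and sex composition cannot be told apart between the males and the stage I fish.

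The hypothalamus is a brain region of neurons and glia. Its neuroendocrine cells release gonadotropin-releasing hormone, which acts on the pituitary, and the pituitary's gonadotropins act in turn on the gonad. The testis holds germ cells and the somatic Sertoli and Leydig cells that support them and make steroid hormones. In sturgeons, stage II is an early stage of gonadal development.

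Expression was given by the authors as FPKM (fragments per kilobase of unigene, scaled to the library's mapped fragments). It covers 121952 unigenes, which were built de novo from the reads of all libraries. Unigenes whose names begin with CL are contigs of a cluster of similar transcripts, and a contig may stand for an isoform, an allele, a gene copy or a fragment of a transcript. The identifiers are given here without the ending All that they share. None of them is paired with a gene name or a sequence in the files used here, so the unigenes are described by their levels only, and no list of hypothalamus or testis markers could be applied. In bulk tissue, fewer cells of a type and less RNA per cell cannot be told apart.

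The tissue labels of 2 libraries conflict: for male fish 4, the words of the labels exchange the hypothalamus and the pituitary relative to the column codes. The codes were followed. Among all 45 libraries, the nearest by correlation of log2(FPKM + 1) was of the same tissue group for 12 of 12 libraries. The mean distance (1 minus Pearson's correlation, a description over unigenes) was 0.0602 within MH, 0.0798 within MG and 0.444 between them. The library coded as the hypothalamus of fish 4 was at a mean distance of 0.0680 from the other 5 hypothalami and 0.255 from the 6 pituitaries, and the one coded as its pituitary at 0.291 and 0.0798 from the other libraries of these groups. By these distances, both libraries of fish 4 lay closer to the tissue group of their code. Counts of changed unigenes with the words of the labels in place of the codes are given with the other alternatives.

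In every fish more unigenes reached 1 FPKM in the testis than in the hypothalamus, and the 10 most abundant unigenes took a smaller share of the summed FPKM. At 1 FPKM or more, the MH libraries held 72526 to 78230 unigenes with a mean of 75708 ± 2142 (SD, n = 6). The MG libraries held 76558 to 83112, with a mean of 79679 ± 2386 (SD, n = 6). The ranges overlapped between the groups, but within each fish the testis was higher, by 832 to 6968 unigenes. The mean difference was 3971 unigenes, higher in 6 of 6 fish, with a two-sided exact sign permutation p of 0.03125, the smallest that 6 pairs allow, and an adjusted p of 0.0521 over 5 such measures. This adjusted p misses the threshold of 0.05. Since the p was already the smallest possible, the adjusted p could be lower only if more of the 5 measures had reached 0.03125. It is thus no measure of the size of the difference. At 0.1 FPKM the mean difference was 1107 unigenes, higher in the testis of 5 of 6 fish (exact p = 0.0938), and at 5 FPKM it was 4270 (exact p = 0.03125).

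The 10 most abundant unigenes took 13.6% to 19.1% of the summed FPKM in MH and 4.93% to 8.46% in MG. The means were 16.1% ± 2.05 and 7.02% ± 1.31 (SD, n = 6 each). The groups did not overlap, and the share was lower in the testis of 6 of 6 fish (exact sign permutation p = 0.03125, adjusted p = 0.0521). The share of the 100 most abundant was closer, 23.3% ± 2.33 against 20.8% ± 3.28 (exact p = 0.156, adjusted p = 0.156), and it was higher in the testis of fish 3. In each library, 50% of the summed FPKM was held by 2947 to 4894 unigenes in MH and by 3556 to 7497 in MG. Relative depth, read from the smallest values, was 0.990 to 1.08 in MH and 0.934 to 1.03 in MG. By this measure the testis was the deeper library within fish in fish 2 only. By the clean reads that the paper lists, the testis library was the larger in fish 1, 2, 3 and 4. The part of depth in the number of expressed unigenes was not tested. Summed FPKM was 640600 to 654290 in MH and 668000 to 703060 in MG. The number of expressed unigenes was not recounted after median-of-ratios scaling, so its dependence on the scaling is unknown. This number and the share of the 10 most abundant come from the same FPKM and are not independent.

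**Figure D1:**
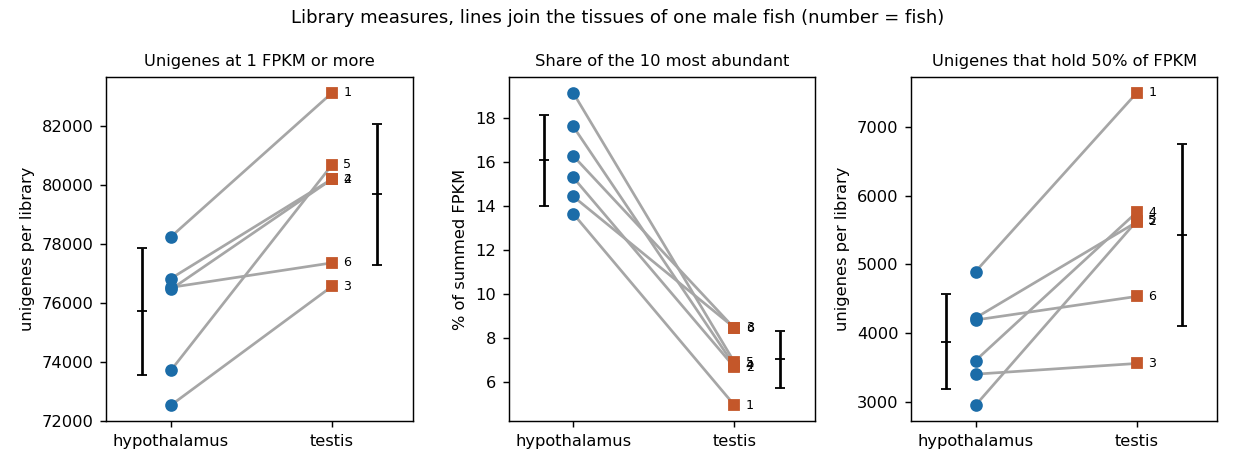
Library measures in the 6 males, with unigenes at 1 FPKM or more, the share of the 10 most abundant unigenes in % of summed FPKM, and the number of unigenes that hold 50% of the summed FPKM on the 3 vertical axes, which do not start at 0. Circles are hypothalamus, squares are testis, lines join the tissues of a fish, numbers are fish, and black bars are the mean ± SD of 6 libraries. In all 6 fish both numbers of unigenes are higher and the share is lower in the testis.

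Most expressed unigenes differed between the tissues. The test covered the 86806 unigenes that reached 1 FPKM in 6 or more of the 12 libraries, and 64941 of them (74.8%) passed an adjusted p under 0.05 in limma with the fish as a block. These were 39910 higher in the testis (46.0%) and 25031 lower in the testis (28.8%). The difference had the same sign in 6 of 6 fish for 35234 unigenes in the direction of the testis and 22521 in the direction of the hypothalamus. The 6 testis libraries lay wholly above the 6 hypothalamus libraries for 25260 unigenes (29.1%), and wholly below them for 16966 (19.5%).

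The balance of the directions depended on the scaling. The median log2 fold change over all tested unigenes was 0.26 on the deposited FPKM. It was 0.013 after median-of-ratios scaling, a shift of the whole distribution. With that scaling 30627 unigenes were higher and 31280 lower in the testis. In all, 30483 higher and 24869 lower calls held in both settings, and 0 unigenes were called in opposite directions.

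Differences of 3 or more on the log2 scale lay more often on the side of the hypothalamus. At a log2 fold change of 1 or more, 18759 called unigenes were higher and 14221 lower in the testis. At 3 or more the counts were 950 and 1802, and at 5 or more 77 and 210. At 8 or more they were 4 and 3. After scaling, the counts at 3 or more were 660 and 2251, and those at 8 or more 3 and 5. All fold changes are on the log2(FPKM + 1) scale, which understates those of low unigenes.

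**Figure D2:**
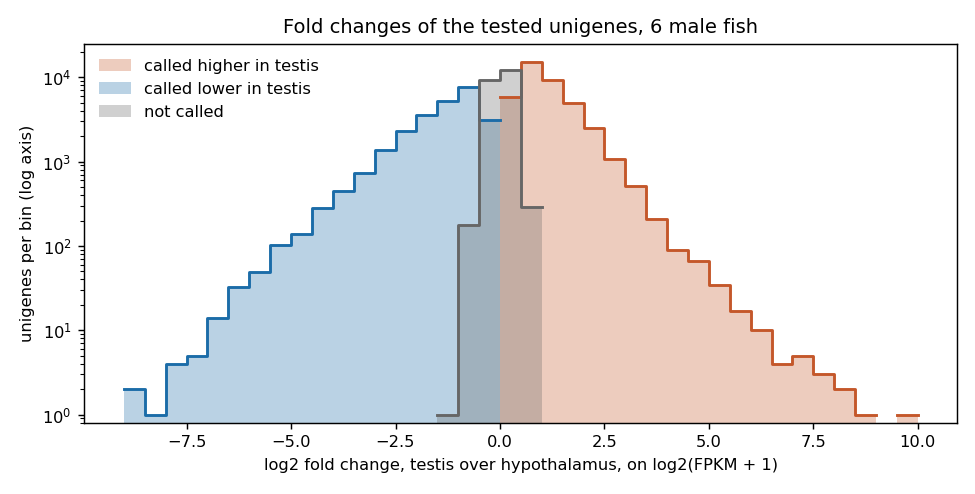
Log2 fold changes (testis over hypothalamus, on log2(FPKM + 1)) of 86806 unigenes in bins of 0.5, with the number of unigenes per bin on a logarithmic axis. Unigenes called higher in the testis, called lower and not called are drawn over each other. Past 3 on either side, 950 called unigenes lie to the right and 1802 to the left.

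The unigenes called at a log2 fold change of 3 or more were then followed through the other tissues and fish. The 1802 hypothalamus-high unigenes had a median group mean of 23.0 FPKM in MH, 3.58 in MP and 0.578 in MG. In the pituitary, 405 of them still averaged at least 10 FPKM, against 1683 in MH and 14 in MG. The 950 testis-high unigenes had a median of 19.3 FPKM in MG, 0.805 in MP and 0.387 in MH, and 65 of them reached a mean of 10 FPKM in the pituitary. Since the sets were chosen on MH and MG, the place of the pituitary between them is a description.

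Fish that share no library with the males gave a further reading of these sets. In the stage I fish, UH against UG was fitted over 77167 unigenes, with 17.2% called in the direction of the gonad and 30.9% in that of the hypothalamus. Of the 1802 hypothalamus-high unigenes, 1770 (98.2%) were also called lower in the stage I gonad, 0 were called higher and 19 were not tested there. Of the 950 testis-high unigenes, 574 (60.4%) were also called higher in the stage I gonad, 0 were called lower and 338 were not tested. The gonad of stage I fish 4 was the lowest for most of the testis-high unigenes that are named below. Without that fish, chosen after the data were seen, 16.7% of 78200 unigenes were called higher and 28.4% lower in the gonad, and the shared counts were 707 (74.4%) of the testis-high and 1768 (98.1%) of the hypothalamus-high unigenes, with 216 and 18 not tested. With stage I fish 4 kept, the median level of the 950 testis-high unigenes was 10.4 FPKM in UG, against 19.3 in MG. The lists were fitted in fish of another stage and age.

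In the 3 females, FH against FG was fitted over 47533 unigenes, with 17.9% called in the direction of the ovary and 37.7% in that of the hypothalamus. There, 844 of the 1802 hypothalamus-high unigenes (46.8%) were called lower in the ovary, 20 were called higher and 856 were not tested. Of the 950 testis-high unigenes, 322 (33.9%) were called higher in the ovary, 48 were called lower and 443 were not tested. The filter bears on the opposite calls in the females in the same way. The median level of the testis-high set was 1.94 FPKM in the ovary. That of the hypothalamus-high set was 2.96 FPKM in the female hypothalamus, below the 23.0 FPKM of the male one. Only 3 females were sampled, and 2 of them were sequenced on another platform, which cannot be told apart from the fish themselves. The paper reports marked differences among the female replicates, most of all in the hypothalamus, and proposes different families as a possible reason.

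Over all calls, 11597 of the 39910 unigenes higher in the testis were also called higher in the stage I gonad, which is 29.1% of the male list and 87.5% of the stage I list. For the lower calls the shared number was 17646 (70.5% and 74.0%). With the females it was 5507 higher (13.8% and 64.6%) and 7442 lower (29.7% and 41.6%). Calls in the opposite direction were 959 of the 39910 and 113 of the 25031 in the stage I fish. In the females they were 5061 (12.7%) and 593. Over all tested unigenes, 17.2% were called higher and 30.9% lower in the stage I gonad, and 17.9% and 37.7% in the ovary. Among the unigenes higher in the testis, opposite calls in the females were nearly as many as shared ones. Since the female fit called more unigenes lower than higher throughout, these near-equal counts are no result about the members. Shares of the male lists include unigenes not tested in the other fish, where 47533 were tested in the females against 86806 in the males. The fits of the stage I fish and of the females used the deposited FPKM only. Whether the shared and opposite calls hold after scaling was not tested.

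**Figure D3:**
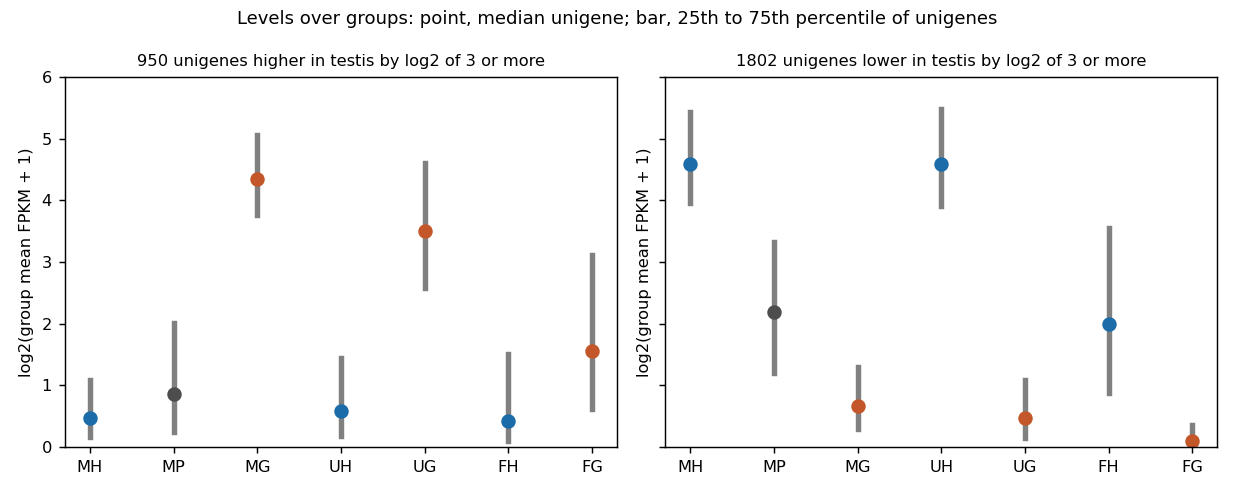
Group mean level, as log2(mean FPKM + 1), of the 950 unigenes higher in the testis (left) and the 1802 lower in the testis (right) by a log2 fold change of 3 or more. MH, MP and MG are the male hypothalamus, pituitary and testis, UH and UG the stage I hypothalamus and gonad, and FH and FG the female hypothalamus and ovary. Points are the median unigene and bars span the 25th to the 75th percentile of unigenes. The sets were chosen on MH and MG. The median of the right set is 23.0 FPKM in MH and 23.2 in UH, and 2.96 in FH.

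The 6 testis-high unigenes with the highest log2 fold changes had medians of 220 to 1510 FPKM in the testis and of 0.146 to 1.04 FPKM in the hypothalamus. They were chosen by the size of this very difference, among unigenes that averaged at least 10 FPKM in the higher tissue and had no overlap of libraries, so their fold changes are a description. Unigene36961 stood at 529 to 2241 FPKM in MG with a median of 1510, and at 0.351 to 2.47 FPKM in MH with a median of 0.638. Its lowest testis library, fish 2, was still far above the highest hypothalamus library, fish 4. The log2 fold change was 9.53 ± 0.20 (SE), the highest of all by this rule.

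Unigene65271 stood at 161 to 1311 FPKM in MG (median 942) and 0 to 1.75 in MH (median 0.593), with a log2 fold change of 8.90 ± 0.27 (SE). The testis of fish 5, at 161 FPKM, lay apart from the other 5 testes, which were at 721 FPKM or more. CL15081.Contig3 varied least among the 6. It stood at 471 to 605 FPKM in MG (median 568) and 0.531 to 1.05 in MH (median 0.811), and its log2 fold change was 8.26 ± 0.08 (SE), with fish between 8.11 and 8.38. Unigene47201 stood at 234 to 778 FPKM in MG (median 421) and 0.102 to 0.985 in MH (median 0.244). Its log2 fold change was 8.34. Unigene52431 and CL284.Contig2 had log2 fold changes of 7.74 and 7.69, with testis medians of 428 and 220 FPKM and hypothalamus medians of 1.04 and 0.146 FPKM.

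The 6 hypothalamus-high unigenes with the largest changes mirrored these values. Unigene37651 stood at 373 to 1408 FPKM in MH (median 941) and 0.309 to 6.20 in MG (median 0.687), a log2 fold change of -8.64 ± 0.24 (SE). Fish 5 gave the highest value in both tissues. CL6337.Contig3 was more even in the hypothalamus, at 751 to 1040 FPKM (median 865), and stood at 0.145 to 7.59 in MG (median 0.855). Its log2 fold change was -8.60 ± 0.26 (SE).

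CL2071.Contig1 stood at 239 to 769 FPKM in MH (median 598) and 0.131 to 4.72 in MG (median 0.612), and Unigene47810 at 445 to 848 FPKM (median 681) against 1.23 to 4.53 (median 1.82). Their log2 fold changes were -8.13 and -7.74. CL2265.Contig1 had medians of 331 FPKM in MH and 0.575 in MG, and Unigene30935 had medians of 748 and 2.49 FPKM, with log2 fold changes of -7.60 and -7.52. Unigene30935 varied most in the hypothalamus, from 175 FPKM in fish 2 to 1153 in fish 4. The highest adjusted p among all 12 unigenes was 1.21e-08 from limma. The rule took only called unigenes whose groups do not overlap, so this p is a description.

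**Figure D4:**
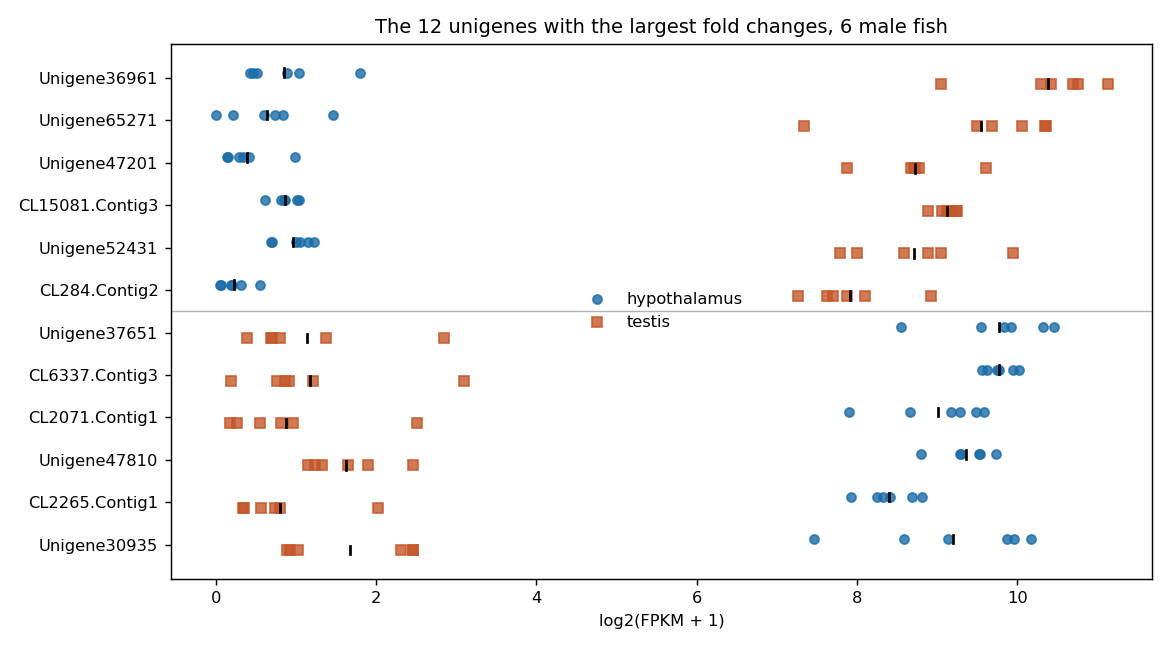
Levels of the 12 unigenes with the largest fold changes as log2(FPKM + 1) in each of 6 hypothalamus libraries (circles) and 6 testis libraries (squares), with the mean of each group as a black line. The upper 6 are testis-high and the lower 6 hypothalamus-high. Every unigene has a gap without libraries between the tissues, and fish 5 is the rightmost square for 5 of the lower 6.

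Traces of each tissue's unigenes in the other tissue were not spread evenly over the fish. The testis of fish 5 was the highest of the 6 testes for 5 of the 6 hypothalamus-high unigenes, and the hypothalamus of fish 4 was the highest of the 6 for 4 of the 6 testis-high unigenes. Wider sets, chosen after these values were seen, held all called unigenes with a log2 fold change of 5 or more and a mean of 50 FPKM or more in their own tissue. For 183 hypothalamus-high unigenes, the median level in the testis relative to the hypothalamus of the same fish was 1.21% in fish 5 and 1.03% in fish 1, and 0.393% to 0.646% in the other 4 fish. The testis of fish 5 was the highest of the 6 for 91 of them. For 58 testis-high unigenes, the median level in the hypothalamus relative to the testis was 0.527% in fish 4 and 0.188% to 0.384% in the others, and fish 4 was the highest for 30 of them.

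In the pituitary, the same 183 hypothalamus-high unigenes had median levels of 7.14% to 10.2% of those in the hypothalamus of the same fish. The 58 testis-high unigenes had 0.264% to 1.23% of the testis level, and the highest pituitary was that of fish 2. It was the highest of the 6 pituitaries for 6 of the 6 named testis-high unigenes. The source of these traces was not tested. Without fish 4 the counts of changed unigenes were 38796 higher and 24802 lower in the testis, and without fish 5 they were 37721 and 24611.

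In the stage I fish, which the choice of the 12 did not use, the libraries of UH and UG did not overlap for 5 of the 6 testis-high unigenes, with the gonad higher (8.61% of all tested). They did not overlap for 6 of the 6 hypothalamus-high ones, with the gonad lower (21.2% of all tested). The exception was Unigene65271, and it rested on the gonad of stage I fish 4, at 1.66 FPKM against 0.913 to 1.74 in UH and 40.5 to 404 in the other 5 gonads. Without that fish the libraries did not overlap for 6 of the 6 (11.3% of all tested). The same gonad was the lowest for 5 of the 6 testis-high unigenes. It stood at 0.526 FPKM for Unigene36961 (others 34.5 to 358), at 0.135 for Unigene47201 (others 11.4 to 256) and at 0.200 for CL284.Contig2 (others 6.29 to 39.5). For CL15081.Contig3, the gonads of stage I fish 4 and 6 were both low, at 5.56 and 7.56 FPKM, and the highest gonad was at 348. For Unigene52431 the gonad of stage I fish 4 was the highest, at 2582 FPKM, with the other 5 at 644 to 1813.

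In the females the libraries did not overlap for 5 of 6 testis-high unigenes, with the ovary higher (20.1% of all tested), and for 6 of 6 hypothalamus-high ones, with the ovary lower (35.0% of all tested). Unigene47201 was nearly as high in the ovary, at 194 to 213 FPKM, as in the lowest testis, and Unigene52431 was the exception, with 4.42 to 9.79 FPKM in the ovary and 0.288 to 12.8 in the female hypothalamus. Of the hypothalamus-high unigenes, CL6337.Contig3 was at 1331 to 2037 FPKM in the female hypothalamus, above every male one. CL2265.Contig1 was at 7.56 to 10.5 FPKM there, below every male one.

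Some unigenes were above 0 in every library of a single tissue and listed at 0 in all 6 libraries of the other. In this way 224 unigenes reached 1 FPKM in all 6 testes and were listed at 0 in all 6 hypothalami, and 102 did so the other way round. These numbers depend on single libraries, since 1 trace removes a unigene. Leaving out single libraries gave 233 to 295 for the testis set, the highest without the hypothalamus of fish 4. It gave 104 to 163 for the hypothalamus set, with 163 without the testis of fish 5 and 155 without that of fish 1. A value of 0 in an estimated table can also be a failed estimate, and no fold is given against it.

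Of the 224 testis unigenes, 157 averaged 1 FPKM or above in the stage I gonad and 46 in the ovary, while 100 were above 0 in the stage I hypothalamus. Of the same 224, 70 were also listed at 0 in all 6 pituitaries. Of the 102 hypothalamus unigenes, 96 had a mean of 1 FPKM or more in UH and 40 in FH, 50 were above 0 in the stage I gonad and 10 were listed at 0 in the pituitary. No share over all unigenes is given beside these counts, so they are a description. The most abundant of each set, singled out after the values were seen, were Unigene49248 and Unigene70732. Unigene49248 stood at 38.8 to 82.2 FPKM in MG (median 55.0), at 63.0 to 141 in UG and at 0.931 to 4.82 in the ovary, and was listed at 0 in every hypothalamus library of males, stage I fish and females. Unigene70732 stood at 20.8 to 47.2 FPKM in MH (median 30.4) and at 8.67 to 51.3 in UH. It was listed at 0 in all gonads and in the 3 female hypothalami.

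The most abundant transcripts were shared between the tissues but stood at different levels. Of the 10 most abundant unigenes by mean FPKM, 6 were common to MH and MG, and of the 100 most abundant, 62. Means of 1000 FPKM or more were reached by 14 unigenes in MH and 45 in MG. Of the 50 that reached it in either tissue, 37 were called higher and 8 lower in the testis. Over all tested unigenes, 46.0% were called higher and 28.8% lower. Most of the 50 were chosen through their testis mean, so this split largely restates the choice.

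Unigene62915 led the hypothalamus, with 28756 to 49329 FPKM (median 38207), and was second in the testis, with 4644 to 9721 FPKM (median 6795). It held 5.90% of the summed FPKM in MH and 0.972% in MG on average, and fell by 2.55 on the log2 scale from hypothalamus to testis (SE 0.21, adjusted p = 1.97e-06 from limma). CL6956.Contig1 stood at 14059 to 28118 FPKM in MH and 2274 to 4495 in MG, with a log2 fold change of -2.47 ± 0.19 (SE, adjusted p = 1.25e-06 from limma). CL7009.Contig1 was the steadiest, with 14664 to 19528 and 3437 to 5060 FPKM and a log2 fold change of -2.02 ± 0.18 (SE). The libraries of the tissues did not overlap for any of these.

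The first unigene of the testis was Unigene63879, with 6005 to 19095 FPKM in MG (median 12684) and 2741 to 5104 in MH (median 3920). It rose by a log2 fold change of 1.66 ± 0.19 (SE, adjusted p = 2.23e-05 from limma). Unigene15131 stood at 4187 to 5478 FPKM in MG and 1314 to 2131 in MH, a log2 fold change of 1.35 ± 0.15 (SE, adjusted p = 1.96e-05 from limma). These log2 fold changes were far smaller than those of the 12 unigenes above, at far higher levels. In the stage I gonad Unigene63879 was higher still, at 15704 to 35302 FPKM, above 5 of the 6 testes for its lowest library. In the female hypothalamus Unigene62915 stood at 69539 FPKM in fish 1 and at 2662 and 1712 in fish 2 and 3, the pair that was sequenced on another platform.

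Some abundant unigenes hardly differed on average. Among the 396 tested unigenes with a mean of 50 FPKM or more in both tissues, the 3 smallest absolute log2 fold changes were chosen. The following is thus a description. Unigene7299 stood at 130 to 156 FPKM in MH (median 141) and 133 to 154 in MG (median 140), with a log2 fold change of 0.01 ± 0.09 (SE). Unigene16434 had medians of 128 and 137 FPKM and Unigene6825 of 84.4 and 90.5. Their tissues overlapped over most of the range, and the SEs were 0.12 and 0.14 on the log2 scale. In fish 6 alone, the log2 difference of Unigene6825 was -0.73. After median-of-ratios scaling, the log2 fold changes of Unigene7299, Unigene16434 and Unigene6825 were -0.32, -0.32 and -0.33, with adjusted p of 0.0102, 0.0294 and 0.0361 from limma, so the evenness of the 3 holds for the deposited FPKM only. In the ovary, the 3 unigenes were far lower, at 0.714 to 27.9 FPKM.

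Contigs of the same cluster did not always move together. Of 12766 clusters with 2 or more tested contigs, 9348 had 2 or more called contigs. In 5411 of these all called contigs were higher in the testis and in 2957 all were lower, while 980 (10.5%) held contigs called in opposite directions. At a log2 fold change of 1 or more both ways the number was 181, and at 3 or more it was 2. The FPKM of all contigs of a cluster were then summed, with single unigenes kept as they are. Of 62245 such units, 28436 were higher (45.7%) and 18170 lower (29.2%) in the testis. Of these units, 42354 were single unigenes, which summing does not change, so the shares say little about the clusters alone. Of the 980 switching clusters, the sum was called higher for 287, lower for 249 and in neither direction for 444.

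The 3 clusters with the largest opposite changes are shown as a description. In cluster CL2037, Contig9 stood at 511 to 1227 FPKM in MH (median 936) and 18.3 to 36.6 in MG (median 26.0). Contig4 stood at 5.82 to 8.57 FPKM in MH (median 6.82) and 131 to 209 in MG (median 154). Neither contig overlapped between the tissues in any fish.

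The log2 fold changes were -5.05 ± 0.16 (SE) for Contig9 and 4.32 ± 0.09 (SE) for Contig4. Contig9 made up 48.2% to 59.2% of the cluster's summed FPKM in the hypothalamus and 3.75% to 8.77% in the testis. Contig4 made up 0.347% to 0.548% in the hypothalamus and 29.8% to 43.4% in the testis. Of 9 tested contigs, 2 were higher and 6 lower in the testis, and the sum of the cluster was lower, with means of 1659 FPKM in MH and 438 in MG.

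In cluster CL65 the balance went the other way. Contig11 stood at 11.0 to 24.4 FPKM in MH (median 13.3) and 279 to 685 in MG (median 442), and Contig13 at 17.2 to 32.8 in MH (median 24.6) and 0.174 to 0.477 in MG (median 0.362). The log2 fold changes were 4.78 ± 0.14 and -4.19 ± 0.14 (SE). The share of Contig11 in the cluster's summed FPKM was 20.1% to 36.6% in the hypothalamus and 82.9% to 91.9% in the testis. The sum rose from a mean of 58.2 FPKM in MH to 514 in MG, with a log2 fold change of 3.07 (adjusted p = 1.83e-08 from limma).

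In cluster CL489 the opposite changes of the contigs were closer in size. Contig1 stood at 7.46 to 14.4 FPKM in MH (median 11.0) and 0.321 to 1.09 in MG (median 0.740), and Contig7 at 0.806 to 1.33 in MH (median 1.09) and 11.9 to 18.1 in MG (median 13.5). The log2 fold changes were -2.79 ± 0.16 and 2.86 ± 0.13 (SE). The summed FPKM was 29.7 ± 3.27 in MH and 27.1 ± 1.82 in MG (SD, n = 6 each). Its log2 fold change was -0.12 ± 0.10 (SE, adjusted p = 0.286 from limma), so a difference of the total was not detected on the deposited FPKM. After median-of-ratios scaling, the log2 fold changes were -2.99 for Contig1 and 2.61 for Contig7. The total of this cluster after scaling is not given here, so its evenness is not established.

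In the stage I fish, Contig9 of CL2037 again did not overlap, with 316 to 765 FPKM in UH and 6.03 to 29.5 in UG, while Contig4 was at 1.21 to 2.15 FPKM in UH and 11.0 to 226 in 5 gonads, and overlapped only through the gonad of fish 4, at 1.10. Contig11 and Contig13 of CL65 were apart in the same directions, with 12.3 to 41.8 against 249 to 1044 FPKM and 12.3 to 16.0 against 0 to 0.394 FPKM. In CL489, Contig1 did not overlap, at 7.31 to 18.6 FPKM in UH and 0.660 to 1.49 in UG. Contig7 of CL489 overlapped, at 0.466 to 1.57 FPKM in UH and 1.03 to 11.4 in UG. Over all tested unigenes, 8.61% did not overlap with the gonad higher and 21.2% with the gonad lower. In the females Contig11 of CL65 was at 24.2 to 267 FPKM in the hypothalamus and 16.4 to 74.7 in the ovary, and these ranges overlapped. The other named contigs of these clusters did not overlap in the females and lay in the directions of the males. Over all unigenes tested there, 20.1% did not overlap with the ovary higher and 35.0% with the ovary lower. The authors mapped reads to all contigs and RSEM shared them out, so near-identical contigs of a cluster are uncertain as separate measurements.

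**Figure D5:**
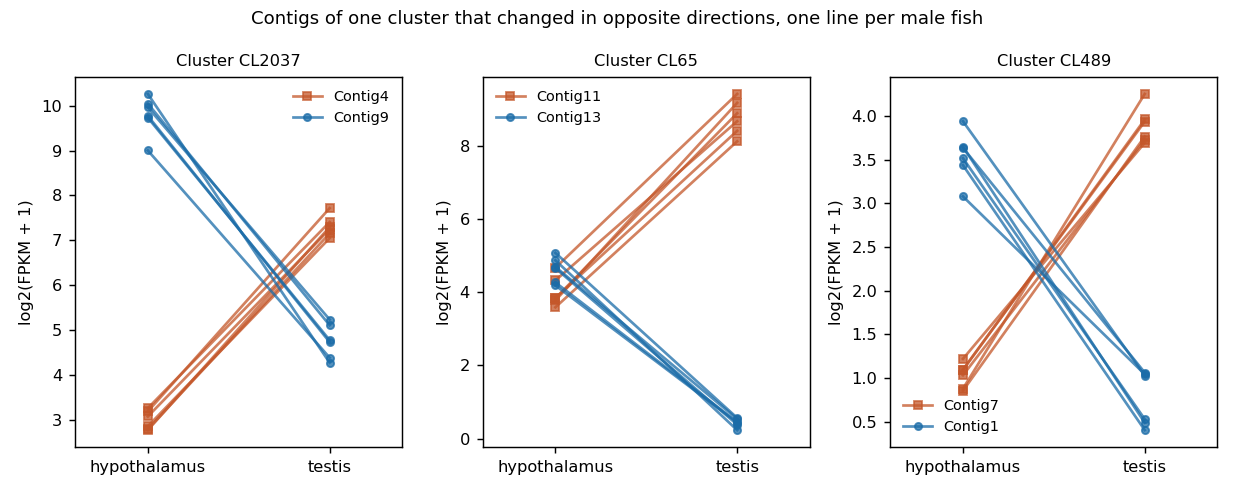
The rising and the falling contig of clusters CL2037, CL65 and CL489 as log2(FPKM + 1) in the hypothalamus and testis, with a line for each of the 6 males and axes that differ between panels and do not all start at 0. The contig drawn in orange rises and the one in blue falls in every fish.

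A few called unigenes varied strongly between fish. Unigene53479 and CL3591.Contig2 had the highest SD of the fish's own difference among called unigenes that averaged at least 10 FPKM in the higher tissue. Unigene53479 was at 30.6 to 273 FPKM in MG (median 62.5) and at 1.38 to 3.59 in 5 hypothalami, but at 203 in the hypothalamus of fish 4. The log2 fold change was 3.61 ± 0.73 (SE, adjusted p = 0.00114 from limma), and it was positive in 5 fish and -0.75 in fish 4. In the pituitary of fish 4 the unigene was at 1.30 FPKM.

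CL3591.Contig2 was at 6.38 to 157 FPKM in MH (median 28.9), and listed at 0 in 3 of 6 testes with a highest value of 1.25. Its log2 fold change was -4.56 ± 0.67 (SE, adjusted p = 0.000125 from limma). In the hypothalamus fish 2, 4 and 6 stood at 127, 157 and 49.2 FPKM and fish 1, 3 and 5 at 6.99, 8.55 and 6.38. The same fish were apart in the pituitary: fish 2, 4 and 6 stood at 249, 257 and 132 FPKM there and fish 1, 3 and 5 at 13.7, 6.90 and 8.36.

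Over all tested unigenes, the spread between fish was larger in the testis: the median SD of log2(FPKM + 1) was 0.302 in MG and 0.262 in MH, and 60.5% of unigenes had the higher SD in MG.

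The difference between gonad and hypothalamus was then compared with that of the stage I fish as an interaction in limma, over 95621 unigenes. The difference was higher in the males for 19820 unigenes (20.7%) and lower for 2734 (2.86%). This split rested on the scaling. After median-of-ratios scaling it was 6091 higher and 5100 lower, of which 6081 and 2690 were also called without scaling. At a log2 difference of 3 or more the counts were 57 and 48, and after scaling 30 and 97.

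Unigene53479 and CL23664.Contig15 had the highest coefficients among unigenes that averaged 10 FPKM or above in a group, so their values are a description. CL23664.Contig15 stood at 161 to 523 FPKM in MG and 27.3 to 35.6 in MH, against 2.73 to 6.32 in UG and 17.8 to 30.7 in UH. It was thus higher in the testis of the males and lower in the stage I gonad than in the hypothalamus, with an interaction of 5.03 ± 0.31 (SE, adjusted p = 4.83e-06 from limma). CL16041.Contig6 and CL1598.Contig1 were chosen in the same way for the lowest coefficients. CL16041.Contig6 had the lowest, -5.32 ± 0.42 (SE). It overlapped between MH (5.34 to 26.0 FPKM) and MG (5.15 to 19.4), and stood at 0.413 to 1.33 in UH and 34.2 to 97.6 in UG. CL1598.Contig1 was at 13.9 to 247 FPKM in UG and at 0.639 to 4.40 in MG, with an interaction of -4.54 ± 0.81 (SE).

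Against the females, over 100450 unigenes, the difference between gonad and hypothalamus was higher in the males for 41718 (41.5%) and lower for 16218 (16.1%). After scaling the counts were 28679 and 26917. At a log2 difference of 3 or more they were 2725 and 1512, and after scaling 1277 and 2739.

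Unigene14776 and Unigene25831 had the highest coefficients among called unigenes that averaged 10 FPKM or above in a group, so their values are a description. Unigene14776 stood at 181 to 290 FPKM in MG and 0.226 to 2.15 in MH, against 0.951 to 6.25 in the ovary and 0.594 to 29.1 in the female hypothalamus (interaction 7.49 ± 0.56, SE). Unigene25831 was at 45.4 to 142 FPKM in MG and 5.71 to 11.1 in MH, against 0.628 to 2.55 in the ovary and 26.9 to 353 in the female hypothalamus, so the order of the tissues was reversed.

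The lowest coefficients belonged to CL22226.Contig1 and CL16422.Contig6, which were far higher in the ovary than in the other groups. CL22226.Contig1 stood at 726 to 1112 FPKM in the ovary and at 0 to 0.363 in the testis, where the male hypothalamus was higher, at 4.21 to 6.77. CL16422.Contig6 stood at 4011 to 7662 FPKM in the ovary and overlapped between MG (0.271 to 5.77) and MH (0.843 to 2.32). The interactions were -10.63 ± 0.39 and -9.98 ± 0.81 (SE). These 2 unigenes were chosen by the same rule for the lowest coefficients, so their values are a description too. CL22226.Contig1 averaged 10 FPKM or above in the ovary only.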

How the data were processed

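FPKM was measured in 45 libraries, of which the 12 of the male hypothalamus and testis were compared here and 24 others were used beside them. The authors built the unigenes from SOAPnuke-filtered reads with Trinity and TGICL. They mapped each sample with SOAP2 and obtained the deposited FPKM values through RSEM. Read counts per unigene are unknown, so no counting interval is given. Relative depth was read from values under 0.15 FPKM, and the clean reads that the paper lists per library entered no fit.

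The 12 libraries were fitted with limma 3.58.1 in R 4.3.3 after the transformation log2(FPKM + 1), with lmFit and trended eBayes. Unigenes had to reach 1 FPKM in 6 or more libraries. In the fit of the females and in the interaction with them the minimum was 3 libraries. It was 1 lower where leaving out a fish left a group with fewer libraries than the minimum. Tissue and fish were the terms, and a Benjamini-Hochberg adjusted p under 0.05 was the call. The numbers pair the tissues because they mark the same fish. The deviations of a fish's 2 libraries from their group means correlated at 0.246 to 0.374, each best with its own fish. Cluster sums, which include the single unigenes unsummed, were fitted in the same way. Interactions were fitted over the libraries of both kinds of fish with tissue differences within fish. Each fish is 1 animal. Measures per library were compared with two-sided exact sign permutations over 6 fish.

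Named unigenes followed a rule: the 6 highest and 6 lowest fold changes, the 3 most abundant per tissue, the 3 most even, the 3 largest switching clusters, the 2 most variable differences and the 2 extremes of each interaction in each direction, with at most 1 contig per cluster. Members and lists were chosen with earlier results of these data known. Lists of marker genes had been drawn up by name and were not used. The limma step and the NOISeq rule, which was written anew, were tested on simulated data. Alternatives were no fish block, median-of-ratios scaling, no filter, 0.1 as the pseudocount, a minimum fold change, leaving out fish, the label words for fish 4, a fit of all 18 male libraries and the NOISeq rule. Tables and figures were made in Python 3.11.15 with pandas 2.3.3, NumPy 2.4.6 and Matplotlib 3.10.9.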

Additional observations from a re-analysis of the deposited data

Results flagged for a closer look

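Of 80 sets of 6 libraries that were checked (named unigenes and library measures in MH and in MG), 11 had a library apart from the other 5, with a gap, as a share of the range, above Dixon's critical value at 95%. Chance gives about 1 in 20 for sets taken without regard to spread. That does not carry over here, because some of these unigenes were chosen for a large spread between fish and several share the same library.

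In 4 of the 11 the library was the hypothalamus of fish 4. It stood at 203 FPKM for Unigene53479 (others 1.38 to 3.59), at 0.985 for Unigene47201 (others 0.102 to 0.334), at 2.09 for CL1598.Contig1 (others 0.335 to 0.749) and at 2.15 for Unigene14776 (others 0.226 to 0.725). This is the library whose tissue labels conflict with its code. Its mean distance was 0.0680 from the other hypothalami and 0.255 from the pituitaries. In another 4 it was the testis of fish 5. It stood at 161 FPKM for Unigene65271 (others 721 to 1311), 7.59 for CL6337.Contig3 (others 0.145 to 1.33), 4.72 for CL2071.Contig1 (others 0.131 to 0.948) and 3.07 for CL2265.Contig1 (others 0.266 to 0.740). The first of these was low and the other 3 were high. The part of these libraries in the results was not tested beyond leaving each fish out.

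The 3 others were single unigenes in different fish. CL3591.Contig2 was at 1.25 FPKM in the testis of fish 1 (others 0 to 0.204), CL1598.Contig1 at 4.40 in the testis of fish 2 (others 0.639 to 1.44) and Unigene16434 at 149 in the hypothalamus of fish 1 (others 122 to 130).

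The difference between gonad and hypothalamus itself differed between the males and the other fish by limma's test of the interaction. It was higher in the males for 19820 unigenes and lower for 2734 against the stage I fish, and higher for 41718 and lower for 16218 against the females. Both splits changed with the scaling.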

How the results depend on the processing

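Of 496 repeats of the named unigenes' tests under alternative settings, 494 kept their direction and their side of the threshold or moved by less than the spread between fish. The exceptions were the even unigenes Unigene7299 and Unigene16434 under scaling, given above with Unigene6825, which stayed within its spread and passed the threshold there. The repeats with a minimum fold change reused the main fit. Most named unigenes were chosen as extremes of these data, so the number of repeats that held was largely set by the choice. A minimum log2 fold change of 1 left 18759 unigenes higher and 14221 lower in MG, 14672 and 10773 cluster sums, 11975 and 1809 interactions with the stage I fish and 181 switching clusters, since it keeps a part of the calls. The NOISeq rule, applied to all 121952 unigenes without the filter and without pairing, called 18414 higher and 13373 lower. Scaling gave 6091 and 5100 interactions with the stage I fish, and 28679 and 26917 with the females. The label words for fish 4 put the library coded as its pituitary among the hypothalami. With them there were 36371 higher and 20017 lower unigenes, and 1767 interactions with the stage I fish were lower. Without the replicate block the main counts were 37332 and 23525, and the block moved no count by over 1.5 times. Leaving out a fish gave 37721 to 40145 higher and 23853 to 24802 lower unigenes, and differences in expressed unigenes of 3371 to 4599, where 5 pairs cannot reach a p under 0.0625. At 0.1 FPKM the difference was 1107 (exact p = 0.0938). No filter gave 49629 and 31165 unigenes, the pseudocount of 0.1 gave 39343 and 24738, and all 18 male libraries in 1 fit gave 40019 and 25024. The cause of the other shifts was not tested. Without read counts per unigene, depth sets an unknown limit on unigenes near 0 FPKM.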
